A study of Mus musculus with 8 samples.

Results

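Sorted CD11b+Gr-1+ myeloid cells from wild-type colon tumors were compared with CD11b+Gr-1+ cells from wild-type bone marrow on 4 of the 8 arrays of the study, 2 per tissue. Each difference is the mean log2 value of the 2 tumor arrays minus that of the 2 marrow arrays. Each gene was read by the probe set with the highest mean among those annotated to that gene alone. Of 18194 such genes, 7508 reached log2 5 on at least 2 of the 4 arrays and were tested, and both pools averaged log2 5 or more for 6787 of them. The study set this comparison beside others to find genes that differ between immature myeloid cells of the marrow and myeloid-derived suppressor cells of the tumor, with and without Hdc, whose product, histidine decarboxylase, converts histidine to histamine.

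The animals were C57BL/6J mice, and all carried the HDC-EGFP transgene according to the sample labels, in which green fluorescence reports activity of the Hdc gene. The marrow cells came from femur and tibia of 3 mice aged 3 to 4 months, after lysis of red cells. They are described as HDC-expressing, and no carcinogen or colitis treatment is named for these mice. The tumor cells came from 10 to 12 tumors of 5 mice aged 7 months. Those mice received a single dose of the carcinogen azoxymethane and then, for 10 days by mouth, dextran sodium sulfate, a chemical that causes colitis, and tumors were taken 22 to 24 weeks later. The study's design text calls the tumor donors wild-type, the sample labels call them HDC-EGFP, and no gate on green fluorescence is named for the tumor cells. Tumor RNA was pooled, while pooling is not stated for marrow. The HDC-EGFP/HDC-KO mice used for reference below had the same ages, tissues and treatments. The 2 arrays of a group are technical replicates, so each tissue is represented by 1 RNA pool, and every adjusted p measures the spread between arrays and not between mice. Tissue, age, treatment, the reporter gate, cell source and donor sex, read from the genes below, cannot be told apart in this comparison.

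CD11b is an integrin chain carried by neutrophils, monocytes and macrophages, and the Gr-1 antibody binds Ly6G and, more weakly, Ly6C. In marrow such cells are mostly neutrophils and their precursors with some monocytes. In tumors, cells of the same surface type are known as myeloid-derived suppressor cells, because they can restrain T cells through arginine depletion, reactive oxygen, prostaglandins and inhibitory ligands, and because they secrete chemokines and growth factors. Neutrophil granule proteins are made in waves: primary granule proteases in promyelocytes, secondary granule proteins in myelocytes, and receptors for chemoattractants in mature cells.

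The pools were checked before the comparison. The share of the 45101 probe sets reaching log2 5 was 30.3% to 31.8% per array. Replicate arrays correlated at 0.996 to 0.998 over the tested genes, and the wild-type marrow and tumor pool means at 0.869. The 6 measured markers of the granulocyte set were Itgam, Csf3r, Cxcr2, S100a8, S100a9 and Ptprc, of which Itgam and Ptprc are also carried by other leukocytes. They lay between 11.7 and 15.1 in marrow and between 11.5 and 15.2 in tumor. S100a8, an abundant calcium-binding protein of neutrophils, was 15.12 and 15.12 on the marrow arrays and 15.17 and 15.18 on the tumor arrays. Hdc was 13.14 and 13.21 on the marrow arrays and 13.25 and 13.23 on the tumor arrays. The Hdc difference of 0.07 ± 0.05 (SE) on the log2 scale was under 2-fold and was not called (limma, adjusted p = 0.33), although a reporter gate is described for the marrow cells alone. Of 6 epithelial markers none reached log2 5 in marrow and all 6 did in the wild-type tumor pool, at 5.15 to 10.05, while all 6 markers of stroma and vessels stayed under log2 5 in both pools. The monocyte and macrophage markers reached log2 5 at 4 of 5 in marrow and at 5 of 5 in tumor. Xist, the RNA of the inactive X chromosome, was 12.43 and 12.35 in marrow and 2.97 and 3.56 in tumor. The Y-linked Eif2s3y was 2.44 and 2.54 on the marrow arrays and 11.06 and 11.12 on the tumor arrays. By these genes the marrow pool read as female and the tumor pool as male. In such pools fewer cells of a type and less RNA per cell cannot be told apart. The part of epithelial RNA and of macrophages in the differences below was not tested, and that of donor sex cannot be told apart from tissue. At some genes given below, among them Trim12a and Trim30d, the wild-type marrow pool stood apart from the HDC-KO marrow pool as well as from tumor, so a fold is also given against the HDC-KO marrow pool for named genes where that pool moves it by over 1.5 times or ends the call.

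The tumor pool differed from marrow at 1103 genes, 14.7% of those tested, by a limma adjusted p under 0.05 with a difference of at least 2-fold. Of these, 716 (9.54%) were higher in tumor and 387 (5.15%) lower, and the arrays of the pools overlapped at none of them. Arrays that do not overlap were common, at 6188 or 82.4% of the tested genes, and the 2-fold rule alone gave 717 and 387 genes, so the size of the difference and not the test set the counts. Among the 6787 genes whose means reached log2 5 in both tissues, 322 (4.74%) were higher and 270 (3.98%) lower. The counts of the gene lists below stand beside these shares, over all tested genes or over genes measured in both pools. The other 394 higher and 117 lower genes were among 718 tested genes with 1 pool mean under log2 5. The filter kept those genes mainly through the other pool, which favours a difference, so their counts are description. On the deposited scale 426 genes rose at least 4-fold and 176 at least 16-fold, against falls of 94 and 26 genes. These counts take means under log2 5 as deposited, so they include genes with smaller bounds. Among those counted at 16-fold, Hspa1a was at least 4.30-fold higher and Kit at least 8.91-fold lower with means raised to log2 5. Against the HDC-KO marrow pool the same tumor arrays gave 655 genes higher (8.72%) and 290 lower (3.86%), with 568 of the 716 and 214 of the 387 still 2-fold in the same direction. Of the 655 and 290, 3 each lay under log2 5 in both pools. Where a gene had other detected probe sets, all of them agreed in direction and 2-fold size for 168 of 204 higher and 63 of 104 lower genes.

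**Figure D1:**
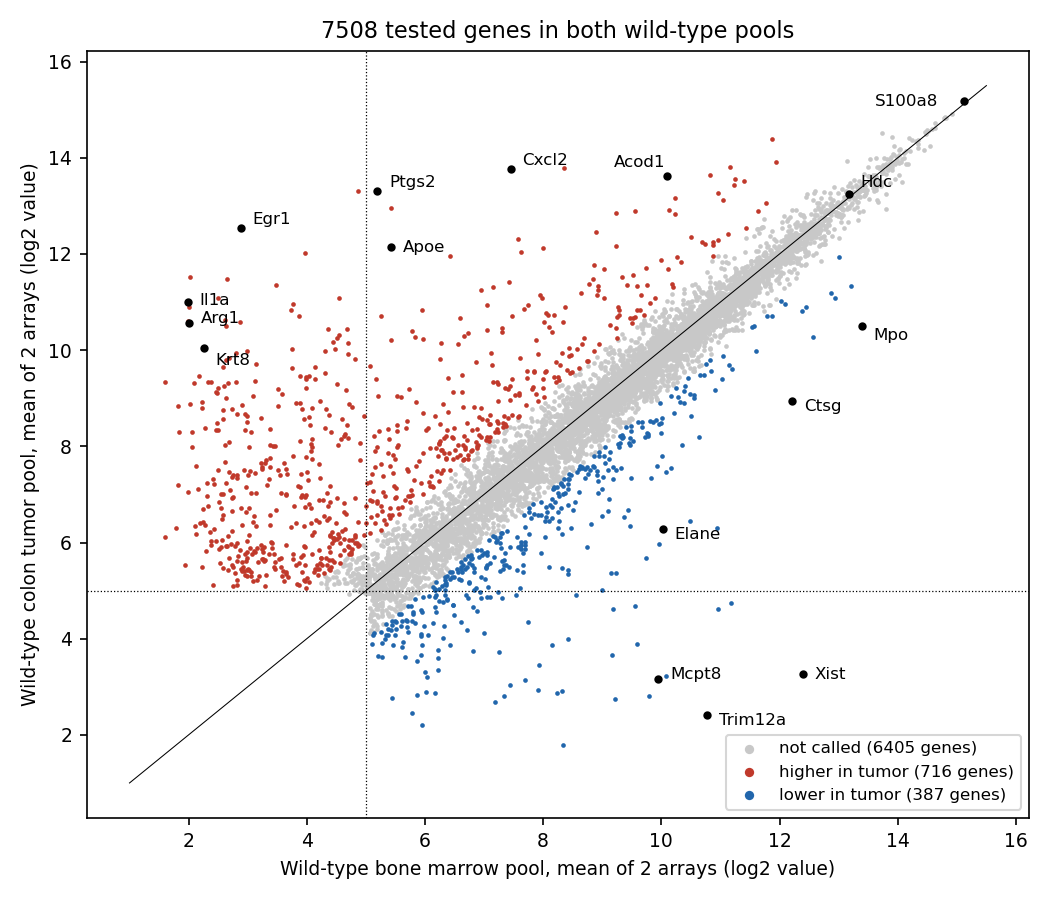
Mean log2 value of each of the 7508 tested genes in the wild-type marrow pool (x axis) and the wild-type tumor pool (y axis), each a mean of 2 technical arrays, with genes called higher or lower in tumor in colour and background at log2 5 dotted. Ptgs2, Cxcl2, Egr1 and Krt8 lie far above the diagonal, Mcpt8, Trim12a and Xist far below it, and Hdc on it.

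The largest rises among genes measured in both pools were at Ptgs2, Ccrl2, Apoe, Cxcl2 and C1qb. Ptgs2, the inducible cyclooxygenase that makes prostaglandin precursors, was 5.14 and 5.24 on the marrow arrays and 13.31 and 13.29 on the tumor arrays, 276-fold higher in tumor (log2 difference 8.11 ± 0.06, limma adjusted p = 1.2e-08). Ccrl2, a non-signalling receptor that holds the chemoattractant chemerin at the cell surface, was 5.15 and 5.70 on the marrow arrays and 12.94 and 12.95 on the tumor arrays and rose 184-fold. Apoe, the lipid carrier made by macrophages, was 5.03 and 5.81 on the marrow arrays and 12.07 and 12.22 on the tumor arrays, a rise of 106-fold. The marrow arrays lay near background for Ptgs2, Ccrl2 and Apoe, and the tumor arrays far above them. Further rises were 43.4-fold for the nuclear receptor Nr4a1, 29.6-fold for the metalloreductase Steap4 and 27.8-fold for Adgre4, an adhesion receptor of macrophages. Against HDC-KO marrow Apoe was 56.9-fold and Steap4 7.11-fold higher. Among genes under log2 5 in marrow the largest bounds were those of Cxcl3, Egr1, Ms4a6d, H2-Ea, Cxcl1 and Ccl3, where Ms4a6d, a macrophage membrane protein, was 4.04 and 3.90 on the marrow arrays and 12.03 and 12.00 on the tumor arrays, at least 129-fold higher, or 19.1-fold against HDC-KO marrow.

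The largest falls among genes measured in both pools were at Rab44, Oasl2, Ramp1, Cd300ld and Elovl7. Rab44, a large Rab GTPase of blood cells, was 11.05 and 10.84 on the marrow arrays and 6.20 and 6.38 on the tumor arrays, 25.2-fold lower in tumor. Ramp1, a subunit of the receptor for calcitonin gene-related peptide, was 10.59 and 10.37 on the marrow arrays and 6.33 and 6.56 on the tumor arrays and fell 16.5-fold. Cd300ld, a receptor of the myeloid CD300 family, was 10.02 and 9.89 on the marrow arrays and 5.67 and 6.27 on the tumor arrays and fell 15.9-fold. No tumor array reached the lowest marrow array at these 3 genes, beside 82.4% of all tested genes without overlap. Elovl7, which elongates fatty acids, and Mogat2, which makes diacylglycerol, fell 15.9-fold and 13.9-fold, and Rpgrip1 fell 14.6-fold. Against HDC-KO marrow the falls were smaller, 3.48-fold for Ramp1, 7.53-fold for Elovl7 and 6.74-fold for Mogat2. Among genes under log2 5 in tumor, H2-Q10, a secreted MHC class I molecule, was 10.98 and 10.94 on the marrow arrays and 4.62 and 4.61 on the tumor arrays, at least 62.4-fold lower (at least 33.5-fold against HDC-KO marrow), and Slc27a2, a fatty acid transporter, was 9.80 and 9.79 on the marrow arrays and 2.61 and 3.01 on the tumor arrays, at least 27.7-fold lower.

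**Figure D2:**
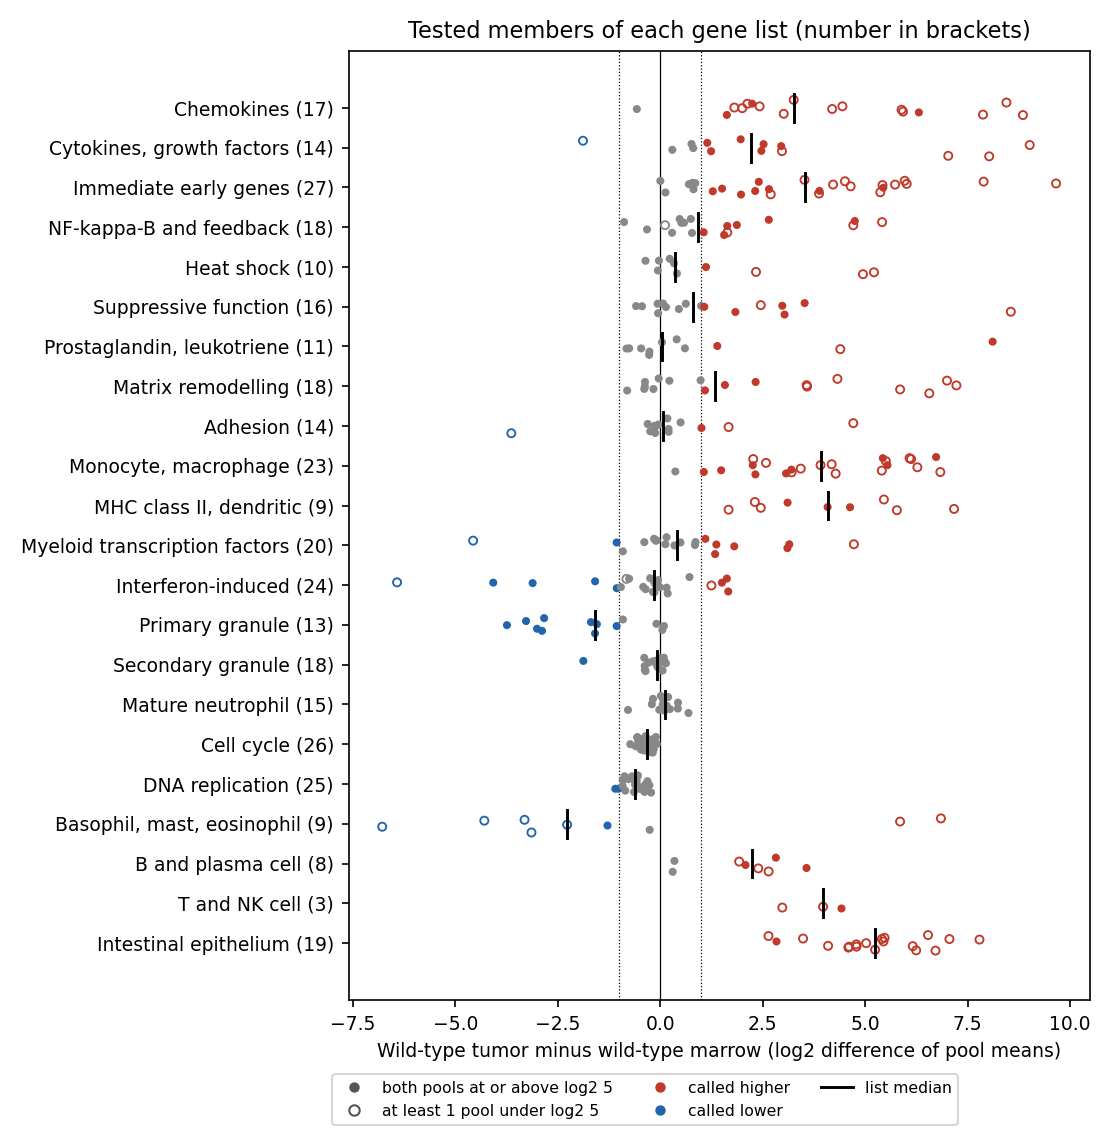
Wild-type tumor minus wild-type marrow difference on the log2 scale (x axis) for each tested gene of 22 gene lists (rows, number tested in brackets), filled where both pools averaged log2 5 or more, red where called higher, blue where called lower, with the list median as a bar and the 2-fold lines dotted. Chemokines, macrophage, MHC class II and epithelial genes lie to the right, primary granule genes to the left, and secondary granule, mature neutrophil and cell cycle genes near 0.

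The promoters of Cxcl1, Cxcl3 and Il6 are shown because their genes were among those that rose most in tumor and carry a site that reads as NF-kappa-B, the factor that inflammatory signals activate. Cxcl1 and Cxcl3 encode chemokines that attract neutrophils through Cxcr2, and Il6 encodes a cytokine that activates Stat3. Each sequence is the 150 bases before the RefSeq transcription start on the plus strand of GRCm38.p6, in lower case with motif matches in capitals.
Cxcl1 promoter, chr5:90891095-90891244: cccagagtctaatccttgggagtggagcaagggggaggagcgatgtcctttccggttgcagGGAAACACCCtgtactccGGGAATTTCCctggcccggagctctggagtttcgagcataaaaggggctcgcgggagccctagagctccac
Cxcl3 promoter, chr5:90785951-90786100: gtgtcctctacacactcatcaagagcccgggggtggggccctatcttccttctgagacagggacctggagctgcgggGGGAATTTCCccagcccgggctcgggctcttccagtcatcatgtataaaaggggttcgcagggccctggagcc
Il6 promoter, chr5:30012964-30013113: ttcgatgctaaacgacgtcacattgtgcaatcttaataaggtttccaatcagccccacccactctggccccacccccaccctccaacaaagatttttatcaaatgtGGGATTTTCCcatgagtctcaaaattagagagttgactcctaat
The motif searched was GGGNNTTTCC on both strands. The match lies at bases -71 to -62 before the start in Cxcl1, with a further match on the other strand at -89 to -80, at -73 to -64 in Cxcl3 and at -44 to -35 in Il6. Promoters of 250 bases before to 50 bases after the start were on hand for 6185 of the 7508 tested genes. The motif was in 3.07% of 749 promoters of genes higher in tumor, 1.52% of 394 promoters of genes lower, 1.75% of 7924 promoters of all tested genes and 1.63% of 32851 promoters in the whole table. TGANTCA, the AP-1 motif of Fos and Jun proteins, was in 10.9%, 5.33%, 5.21% and 7.81% of the same sets. The interferon response motif GAAANNGAAA was in 4.94%, 4.31%, 3.32% and 3.44%, and the TATA box TATAAA in 13.8%, 9.14%, 7.28% and 13.6%, so promoters of the higher genes held each of these 4 more often than those of all tested genes. The hypoxia motif ACGTG was in 23.8%, 20.3%, 26.5% and 19.6%, and TTTGAA, a motif of cell cycle promoters, in 13.6%, 10.9%, 12.2% and 17.9%. These shares are descriptions with no test, and a match is not evidence of binding.

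Chemokine genes were higher in tumor almost throughout the list. Of 22 genes 17 were tested, 16 were called higher and none lower, against 9.54% of all tested genes, but 13 of the 16 were under log2 5 in marrow. Of the 4 measured in both pools 3 were higher. Cxcl2, a Cxcr2 ligand, was 7.41 and 7.49 on the marrow arrays and 13.76 and 13.76 on the tumor arrays, 79.2-fold higher (log2 difference 6.31 ± 0.06, limma adjusted p = 1.9e-08). Cxcl1 was 2.56 and 2.72 on the marrow arrays and 11.50 and 11.47 on the tumor arrays, at least 89.8-fold higher, and Cxcl3 was 5.46 and 4.27 on the marrow arrays and 13.36 and 13.26 on the tumor arrays, at least 318-fold higher. The other detected Cxcl1 probe sets gave log2 differences of 2.09 to 8.94. Ccl3, which attracts monocytes, was 3.39 and 3.56 on the marrow arrays and 11.35 and 11.35 on the tumor arrays, at least 81.4-fold higher. All tumor arrays at these 4 ligands lay above all marrow arrays, while arrays did not overlap at any called gene or at 82.4% of all tested genes. Against HDC-KO marrow Cxcl2 was at least 433-fold higher. Ccl6, which marrow neutrophil precursors already express, was the exception, with 13.65 and 13.67 on the marrow arrays and 13.10 and 13.07 on the tumor arrays and no call. The receptor Cxcr2 was not called either, at 11.70 and 11.74 on the marrow arrays and 11.52 and 11.50 on the tumor arrays.

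Cytokine and growth factor genes followed, with 10 of 14 tested called higher and 1 lower, beside 9.54% and 5.15% of all tested genes. Of the 9 measured in both pools 6 were higher, beside 4.74% of all genes so measured. Il1a, an alarm cytokine, was 1.80 and 2.17 on the marrow arrays and 11.13 and 10.86 on the tumor arrays, at least 63.7-fold higher. Il6 was 2.65 and 2.56 on the marrow arrays and 10.74 and 10.52 on the tumor arrays, at least 49.6-fold higher. Hbegf, a ligand of the epidermal growth factor receptor, was 1.72 and 1.91 on the marrow arrays and 8.89 and 8.79 on the tumor arrays, at least 14.3-fold higher, and Osm, an interleukin 6 family cytokine, was 9.20 and 9.25 on the marrow arrays and 12.20 and 12.15 on the tumor arrays and rose 7.72-fold, or 14.2-fold against HDC-KO marrow. Il1b, chosen after its values were seen, was already high in marrow at 11.92 and 11.82 and reached 14.31 and 14.46, a log2 difference of 2.52 ± 0.09. None of these genes overlapped between the tissues, as was so for every called gene and for 82.4% of all tested genes. Tnfsf14, the ligand LIGHT, was lower, at 5.91 and 5.96 against 4.16 and 3.94, but its call was lost when values were raised to log2 5. Csf1, Tgfb1 and Inhba were not called. The 3.25 median log2 difference of the chemokines and 2.21 of the cytokines became 1.93 and 1.60 with pool means raised to log2 5, against -0.06 over all tested genes.

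Immediate early genes, which cells transcribe within minutes of a signal, were higher as a group. All 27 were tested, and 21 were called higher and none lower, beside 9.54% and 5.15% of all tested genes. Among the 14 measured in both pools 8 were higher, beside 4.74% of all genes so measured. Egr1, a zinc finger factor, was 2.93 and 2.83 on the marrow arrays and 12.50 and 12.56 on the tumor arrays, at least 185-fold higher. Nr4a1 was 5.46 and 5.06 on the marrow arrays and 10.78 and 10.62 on the tumor arrays, 43.4-fold higher, Egr3 was 2.30 and 2.95 on the marrow arrays and 10.57 and 10.46 on the tumor arrays, and the stress factor Atf3 was 4.44 and 4.44 on the marrow arrays and 10.10 and 10.24 on the tumor arrays. The marrow arrays of Egr1, Egr3 and Atf3 were at background. Fos, chosen after its values were seen, was 11.90 and 11.97 on the marrow arrays and 13.86 and 13.95 on the tumor arrays. Dusp1, which switches off MAP kinases, was high in both tissues, with 13.14 and 13.14 on the marrow arrays and 13.90 and 13.95 on the tumor arrays, and was not called. Heat shock genes moved with these in part. Of 10 tested, 4 were higher, beside 9.54% of all tested genes, and the median of the 10 was 0.37. Of the 7 measured in both pools 1 was higher, beside 4.74% of all genes so measured. Hspa1b, the inducible heat shock protein, was 4.45 and 4.18 on the marrow arrays and 9.54 and 9.51 on the tumor arrays, at least 23.0-fold higher, and Hspa1a was 2.02 and 2.30 on the marrow arrays and 7.21 and 7.00 on the tumor arrays. Hspe1 rose 2.16-fold and Hsph1 at least 2.65-fold, but against the HDC-KO marrow pool their log2 differences were 0.20 and 0.74 and neither was called. The labels describe flushing of marrow in ice-cold buffer and no step of tumor dissociation, and the part of cell handling in these differences was not tested.

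NF-kappa-B subunits and their feedback inhibitors gave 9 of 18 genes higher and none lower, beside 9.54% and 5.15% of all tested genes. Of the 14 measured in both pools 6 were higher, beside 4.74% of all genes so measured. Tnfaip3, the deubiquitinase A20 that shuts NF-kappa-B signalling off, was 7.51 and 7.63 on the marrow arrays and 12.33 and 12.29 on the tumor arrays, 26.8-fold higher. Icam1, an adhesion ligand and NF-kappa-B target, was 4.04 and 4.14 on the marrow arrays and 8.91 and 8.69 on the tumor arrays, at least 13.9-fold higher. Traf1, a signalling adaptor, rose at least 8.14-fold and Nfkbiz, a nuclear co-factor, 6.26-fold. Rela, Nfkb2 and Nfkbia were among the 9 not called, and Nfkbia, the main inhibitor of NF-kappa-B, was 13.89 and 13.93 on the marrow arrays and 14.48 and 14.37 on the tumor arrays. The Nfkbia difference was 0.51 ± 0.06.

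Suppressive function showed a mixed picture. Of 16 genes tested 7 were higher and none lower, beside 9.54% and 5.15% of all tested genes, and the list median was 0.81. Of the 14 measured in both pools 5 were higher, beside 4.74% of all genes so measured. Arg1, which breaks down arginine and starves T cells of it, was 1.78 and 2.25 on the marrow arrays and 10.53 and 10.60 on the tumor arrays, at least 47.3-fold higher. Acod1, which makes itaconate, was 10.26 and 9.93 on the marrow arrays and 13.59 and 13.64 on the tumor arrays and rose 11.5-fold. Cd274, the inhibitory ligand PD-L1, was 6.23 and 6.53 on the marrow arrays and 9.37 and 9.45 on the tumor arrays and rose 8.18-fold (log2 difference 3.03 ± 0.12, limma adjusted p = 4.9e-06), and Slc7a11, the cystine importer, was 5.18 and 5.58 on the marrow arrays and 8.19 and 8.53 on the tumor arrays and rose 7.87-fold. The other detected probe set of Slc7a11 gave a difference of -0.43. Tumor arrays of Arg1, Acod1, Cd274 and Slc7a11 all lay above the marrow arrays, beside 82.4% of all tested genes without overlap. Against HDC-KO marrow Acod1 was 103-fold, Cd274 at least 21.3-fold and Slc7a11 4.07-fold higher. Not called were Arg2, Lgals9, Cd80, Vsir, Entpd1, Nt5e, Stat3, Cybb and Xdh, and Nos2, Ido1 and Pdcd1lg2 were under the level for testing. In the prostaglandin and leukotriene list 3 of 11 tested genes were higher and none lower, beside 9.54% and 5.15% of all tested genes. The list median was 0.04. Beside Ptgs2, Hpgd, which inactivates prostaglandins, was 3.46 and 3.29 on the marrow arrays and 7.78 and 7.76 on the tumor arrays, at least 6.80-fold higher, and Pla2g7, which degrades platelet-activating factor, rose 2.62-fold. Alox5ap, needed for leukotriene synthesis, was not called, with 14.01 and 14.03 on the marrow arrays and 14.06 and 14.07 on the tumor arrays.

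**Figure D3:**
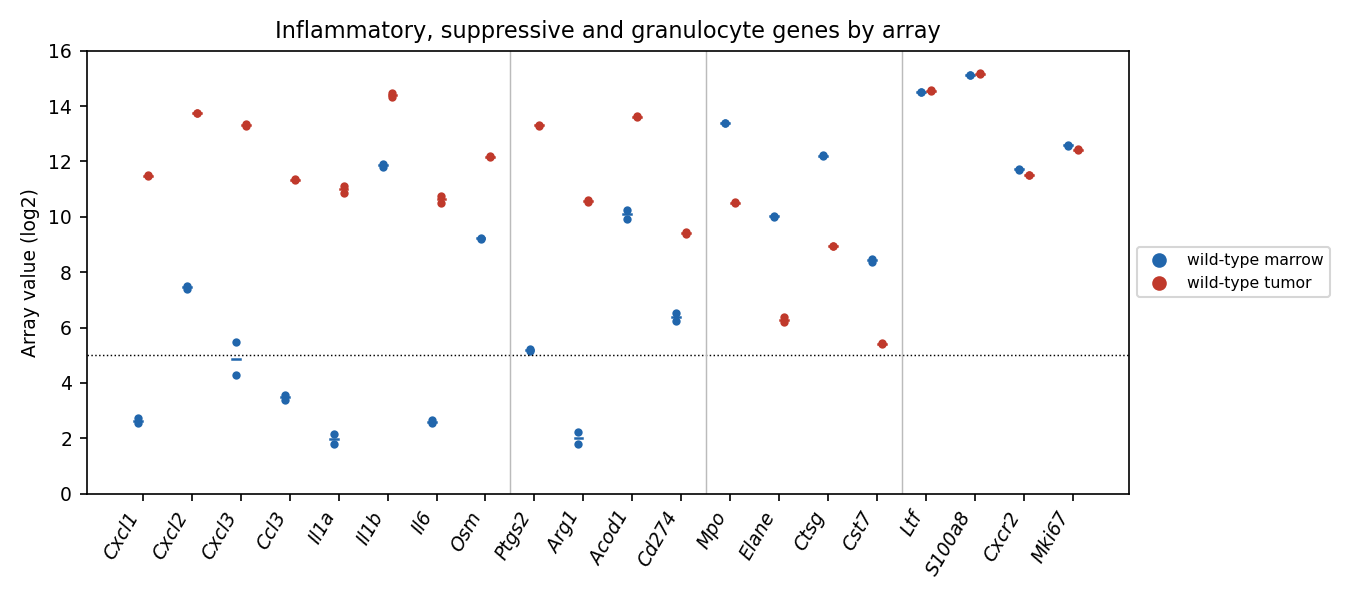
Log2 value of every wild-type array (y axis) for genes of the inflammatory, suppressive, primary granule and other granulocyte groups (x axis), blue for the marrow arrays and red for the tumor arrays, with a bar at each pool mean and background at log2 5 dotted. Chemokine, cytokine and suppressive genes are higher on the tumor arrays, Cxcl1, Ccl3, Il1a, Il6 and Arg1 from background, primary granule genes are lower, and Ltf, S100a8, Cxcr2 and Mki67 sit nearly level.

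Matrix and clotting genes were higher in tumor at 10 of 18 tested, beside 9.54% of all tested genes, and none was lower. Of the 11 measured in both pools 3 were higher, beside 4.74% of all genes so measured. Serpinb2, an inhibitor of plasminogen activators, was 3.08 and 2.90 on the marrow arrays and 10.07 and 9.90 on the tumor arrays, at least 31.6-fold higher. Mmp13, a collagenase, was 2.03 and 2.15 on the marrow arrays and 9.46 and 9.17 on the tumor arrays, at least 19.9-fold higher, and Mmp12, the macrophage elastase, was 2.19 and 2.27 on the marrow arrays and 8.76 and 8.82 on the tumor arrays, at least 13.9-fold higher. Sdc4, a cell surface proteoglycan, rose at least 12.7-fold. These 4 were all at background on the marrow arrays. The neutrophil matrix enzymes Mmp8 and Mmp9, stored in granules, were not called, with Mmp9 at 14.01 and 14.03 on the marrow arrays and 13.65 and 13.64 on the tumor arrays. Adhesion genes gave 3 higher and 1 lower of 14, beside 9.54% and 5.15% of all tested genes, with a median of 0.06. Beside Icam1, Itgax, the CD11c chain, rose at least 1.69-fold, and Itga4, a chain of the integrin VLA-4, rose 2.01-fold. Itgax was not called with values raised to log2 5, and Itga4 was not called without marrow array 2 (0.95) or without tumor array 1 (0.97). Itgb3, the integrin chain of platelets and mast cells, was 8.64 and 8.46 on the marrow arrays and 4.91 and 4.92 on the tumor arrays, at least 11.7-fold lower. Itgam, the CD11b chain by which the cells were sorted, was 12.22 and 12.25 on the marrow arrays and 11.90 and 11.95 on the tumor arrays and was not called.

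Primary granule genes were lower in tumor. The list also holds genes of other products, such as the transcription factors Myb and Gfi1, and Myb is counted again with the transcription factors below. All 13 tested genes of the list were measured in both pools. Of these, 9 were called lower and none higher, against 5.15% of all tested genes lower, and the median difference was -1.59. Elane, neutrophil elastase, was 10.00 and 10.04 on the marrow arrays and 6.37 and 6.18 on the tumor arrays, 13.4-fold lower (log2 difference -3.74 ± 0.14, limma adjusted p = 3e-06). Ctsg, cathepsin G, was 12.22 and 12.21 on the marrow arrays and 8.94 and 8.94 on the tumor arrays, 9.68-fold lower, and Cst7, a cystatin that restrains granule proteases, fell 8.04-fold. Mpo, myeloperoxidase, was 13.38 and 13.41 on the marrow arrays and 10.52 and 10.49 on the tumor arrays, 7.39-fold lower, so it stayed well above background in tumor. No tumor array reached the marrow arrays at Elane, Ctsg, Cst7 or Mpo, beside 82.4% of all tested genes without overlap. Against HDC-KO marrow Ctsg was 6.17-fold lower. The others called lower were Nkg7, Prtn3, Ms4a3, Igfbp4 and Myb, and Gfi1, a repressor needed for granulocyte maturation, missed the threshold at -0.91.

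Later granule genes and mature neutrophil genes stayed close to their marrow levels. Of 18 secondary and tertiary granule genes 1 was called, Itgb2l, an integrin chain of neutrophil precursors, which was 13.20 and 13.23 on the marrow arrays and 11.28 and 11.40 on the tumor arrays. Its fall of 3.67-fold was not called as the mean of its probe sets, where the log2 difference was -0.60. Ltf, lactoferrin, was 14.50 and 14.51 on the marrow arrays and 14.54 and 14.59 on the tumor arrays, and the list median was -0.07. Limma called none of 15 mature neutrophil genes. An unadjusted p under 0.05 was found for 10 of them, beside 3544 of all 6405 genes not called. The differences of the 15 ran from -0.79 to 0.69 around a median of 0.11. Among them Csf3r, the receptor for granulocyte colony-stimulating factor, was 12.13 and 12.09 on the marrow arrays and 12.19 and 12.24 on the tumor arrays. The tumor arrays lay slightly above the marrow arrays there, by less than 2-fold.

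Cell division genes stayed nearly as high in the tumor pool as in marrow. Limma called none of 26 cell cycle genes at 2-fold. An unadjusted p under 0.05 was found for 19, beside 3544 of all 6405 genes not called. All 26 differences were negative on the deposited scale, from -0.73 to -0.08 with a median of -0.34. Mki67, the proliferation antigen, was 12.61 and 12.58 on the marrow arrays and 12.42 and 12.44 on the tumor arrays, and Top2a, the topoisomerase of dividing cells, was 12.16 and 12.21 on the marrow arrays and 11.66 and 11.59 on the tumor arrays; both were chosen after their values were seen. DNA replication genes had a median difference of -0.61 and a range of -1.10 to -0.23. Of 25, 2 were called lower (8%), beside 5.15% of all tested genes. Cdc45, a replication helicase part, fell 2.14-fold, and Rfc5, a clamp loader part, fell 2.03-fold. Cdc45 was not called without tumor array 1 (-0.86), and Rfc5 was not called without tumor array 2 (-0.96) or against the HDC-KO marrow pool (-0.79). Of the progenitor genes only Kit and Cd93 could be tested, and Kit is given with the mast cell genes below.

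Myeloid transcription factors were called higher at 7 of 20 tested and lower at 2, beside 9.54% and 5.15% of all tested genes. Of the 18 measured in both pools 6 were higher and 1 lower, beside 4.74% and 3.98% of all genes so measured. Ahr, the receptor for aryl hydrocarbons and tryptophan products, was 4.25 and 4.19 on the marrow arrays and 8.85 and 9.03 on the tumor arrays, at least 15.4-fold higher. Maf, a macrophage regulator, was 7.37 and 7.25 on the marrow arrays and 10.44 and 10.47 on the tumor arrays and rose 8.86-fold, and Klf4, which drives monocyte differentiation, was 7.83 and 8.14 on the marrow arrays and 11.15 and 11.02 on the tumor arrays and rose 8.58-fold, or 2.95-fold against HDC-KO marrow. Irf8, which sets monocyte against granulocyte fate, rose 3.49-fold and was not called against the HDC-KO marrow pool (0.97). Myb, the progenitor factor, fell 2.09-fold. Runx1 was 9.11 and 9.24 on the marrow arrays and 4.43 and 4.79 on the tumor arrays, at least 18.0-fold lower by its brightest probe set, whereas its other detected probe sets differed by -1.75 to -0.64. Spi1 and Cebpb, which define the myeloid lineage, were not called, with Cebpb at 13.66 and 13.62 on the marrow arrays and 14.00 and 13.97 on the tumor arrays.

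Monocyte and macrophage genes were higher in tumor at 22 of 23 tested, Mpeg1 being the 1 not called, beside 9.54% of all tested genes. Of the 10 measured in both pools 9 were higher, beside 4.74% of all genes so measured. Their median log2 difference was 3.91, or 3.07 with means raised to log2 5. The complement chains C1qa and C1qb, made by tissue macrophages, rose at least 52.1-fold and 46.6-fold, C1qa from 4.01 and 3.74 in marrow to 10.70 and 10.71 in tumor. Cd14, the lipopolysaccharide co-receptor, was 8.38 and 8.32 on the marrow arrays and 13.81 and 13.74 on the tumor arrays, 43.1-fold higher (log2 difference 5.43 ± 0.15, limma adjusted p = 9.1e-07). Lgmn, a lysosomal protease, was 4.38 and 4.35 on the marrow arrays and 10.42 and 10.47 on the tumor arrays, at least 43.5-fold higher. Csf1r, the receptor for macrophage colony-stimulating factor, was already at 10.75 and 10.71 in marrow and at 12.16 and 12.26 in tumor. Ccr2, the receptor that brings monocytes into tissue, was 7.93 and 7.98 on the marrow arrays and 11.15 and 11.15 on the tumor arrays. None of the 6 genes given here overlapped between the tissues, which held for every called gene and for 82.4% of all tested genes. Against HDC-KO marrow Cd14 was 93.7-fold and C1qb 21.3-fold higher. Lpl, lipoprotein lipase, rose at least 2.93-fold here but was lower than in the HDC-KO marrow pool by -1.07 on the log2 scale.

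The list that joins MHC class II with dendritic cell markers held 20 genes, and only 9 were tested. All 9 were higher in tumor, beside 9.54% of all tested genes, 3 of them measured in both pools and 6 from under log2 5 in marrow. Flt3, Xcr1, Clec9a, Batf3, Zbtb46, Ccr7, Cd209a and Siglech, all markers of dendritic cells, were not tested. The counts therefore rest mostly on class II and activation genes and do not speak to dendritic cells. Cd74, the invariant chain that guides class II molecules, was 5.69 and 5.85 on the marrow arrays and 10.31 and 10.49 on the tumor arrays, 24.7-fold higher (log2 difference 4.63 ± 0.09, limma adjusted p = 1.9e-07). H2-Ab1 was 4.84 and 4.56 on the marrow arrays and 10.11 and 10.21 on the tumor arrays, H2-Eb1 rose at least 39.8-fold, and Cd83, an activation marker of dendritic cells, was 2.64 and 2.62 on the marrow arrays and 9.84 and 9.75 on the tumor arrays, at least 27.8-fold higher. H2-Ea, which encodes the class II E alpha chain, was 2.02 and 2.03 on the marrow arrays and 11.52 and 11.52 on the tumor arrays, with 3.93 and 3.83 in HDC-KO marrow and 13.24 and 13.15 in the pool labelled HDC-KO tumor. The C57BL/6 haplotype is known to lack an E alpha transcript because of a promoter deletion, so the reading of this probe set in tumor stands against the strain named in the labels, and its source was not tested.

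Interferon-induced genes split, with 4 of 24 tested (16.7%) called higher and 5 (20.8%) lower, beside 9.54% and 5.15% of all tested genes. Of the 21 measured in both pools 3 were higher and 4 lower, beside 4.74% and 3.98% of all genes so measured. Oasl2, an interferon-induced protein of the oligoadenylate synthetase family, was 9.63 and 9.86 on the marrow arrays and 5.56 and 5.77 on the tumor arrays, 16.9-fold lower (log2 difference -4.08 ± 0.12, limma adjusted p = 1.3e-06). Ifit3, which acts with Ifit1 against viral RNA, was 9.44 and 9.48 on the marrow arrays and 6.35 and 6.34 on the tumor arrays, 8.66-fold lower, and Usp18, which removes Isg15, fell 3.01-fold. Trim30d was 11.11 and 11.23 on the marrow arrays and 4.84 and 4.65 on the tumor arrays, at least 72.0-fold lower, and its relative Trim12a was 10.81 and 10.75 on the marrow arrays and 2.42 and 2.40 on the tumor arrays, at least 54.8-fold lower. Of those higher, Gbp3, a guanylate-binding protein, rose 3.15-fold, the chemokine Cxcl10 3.08-fold and Oasl1 2.83-fold. Mx1 rose at least 1.08-fold and was not called with values raised to log2 5. The HDC-KO marrow arrays were lower than wild-type marrow at several of these genes, at 7.43 and 7.45 for Oasl2, 7.25 and 7.76 for Ifit3, 2.38 and 2.77 for Trim30d and 2.37 and 2.32 for Trim12a. Against that pool the log2 difference of the wild-type tumor arrays was -1.77 at Oasl2, -1.16 at Ifit3 and -0.39 at Usp18, which was then not called. Ifit1 differed by -1.06 ± 0.06 from wild-type marrow and was higher by 1.41, called, against HDC-KO marrow. Oasl1 (0.89) and Mx1 (1.00) were not called there, and Gbp3 was 5.08-fold higher. Trim30d and Trim12a lay under log2 5 in both pools of that comparison, so no direction is given for them. Leaving out Trim30d, the list counted 4 higher and 2 lower against HDC-KO marrow, beside 8.72% and 3.86% of all tested genes.

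Most tested genes of basophils, mast cells and eosinophils were called lower in tumor. Of 9 tested, 6 were lower and 2 higher, beside 5.15% and 9.54% of all tested genes. Only 2 were measured in both pools, of which 1 was lower. Mcpt8, a basophil protease, was 10.04 and 9.86 on the marrow arrays and 3.23 and 3.10 on the tumor arrays, at least 30.9-fold lower. Kit, the stem cell factor receptor, was 8.22 and 8.09 on the marrow arrays and 3.87 and 3.86 on the tumor arrays, at least 8.91-fold lower, and Fcer1a, the chain that binds immunoglobulin E, was 6.07 and 6.28 on the marrow arrays and 2.92 and 2.81 on the tumor arrays, at least 2.26-fold lower. Mcpt2 and Mcpt1, proteases of mucosal mast cells, went the other way, Mcpt2 with 2.01 and 2.05 on the marrow arrays and 8.99 and 8.76 on the tumor arrays and Mcpt1 with 2.40 and 2.60 on the marrow arrays and 8.37 and 8.33 on the tumor arrays. Neither of these mucosal proteases was above background on any marrow array. Siglecf, an eosinophil lectin, fell 2.44-fold. Ms4a2 and Cpa3 were also called lower, from pool means of 6.03 and 5.93 in marrow to 2.88 and 3.66 in tumor. Prg2 was not called, with pool means of 6.96 in marrow and 6.70 in tumor. In HDC-KO marrow Ms4a2, Cpa3 and Prg2 averaged 3.85, 3.87 and 7.93. Against the HDC-KO marrow pool, Mcpt8 was at least 7.31-fold and Kit at least 4.50-fold lower. Siglecf (-0.27) was not called there, and Fcer1a lay under log2 5 in both pools. The list counted 2 higher and 3 lower there, beside 8.72% and 3.86% of all tested genes.

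Most tested genes of other blood cells and of epithelium were higher in tumor, beside 9.54% of all tested genes. B and plasma cell genes gave 6 of 8 higher and none lower, 3 of them among the 5 measured in both pools. Jchain, which joins secreted immunoglobulin, was 8.83 and 8.97 on the marrow arrays and 12.44 and 12.50 on the tumor arrays, 11.8-fold higher (log2 difference 3.57 ± 0.08, limma adjusted p = 3.4e-07), Ighm rose 7.06-fold and Igha, the chain of mucosal antibody, rose 4.22-fold. The 7 other detected Ighm probe sets ranged from -4.05 to 4.00. Sizes depended on the marrow reference: against HDC-KO marrow Jchain was 167-fold, Ighm 14.9-fold and Igha 212-fold higher. Of 17 T and NK cell genes only 3 were tested, and all 3 were higher, but 2 of them averaged under log2 5 in marrow. Cd4, Cd8a, Cd2, Lck, Zap70, Ncr1, Gzmb and Prf1 were not tested. Cd3d, a chain of the T cell receptor complex, was 7.87 and 7.39 on the marrow arrays and 11.99 and 12.07 on the tumor arrays, while its partners Cd3e and Cd3g stayed under log2 5 in both pools, and in HDC-KO marrow Cd3d was 12.49 and 12.46, so that its difference against that pool was -0.44 and was not called. All 19 tested genes of intestinal epithelium were higher, 18 of them from under log2 5 in marrow, with Krt8, a keratin, at 2.50 and 2.02 on the marrow arrays and 10.02 and 10.07 on the tumor arrays and Epcam, the epithelial adhesion molecule, at 2.71 and 2.47 on the marrow arrays and 9.65 and 9.64 on the tumor arrays. The epithelial markers ranged over 2.26 to 3.99 in marrow pool means and 5.15 to 10.05 in tumor, beside all the gene groups that rose, and their part in those rises was not tested.

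**Figure D4:**
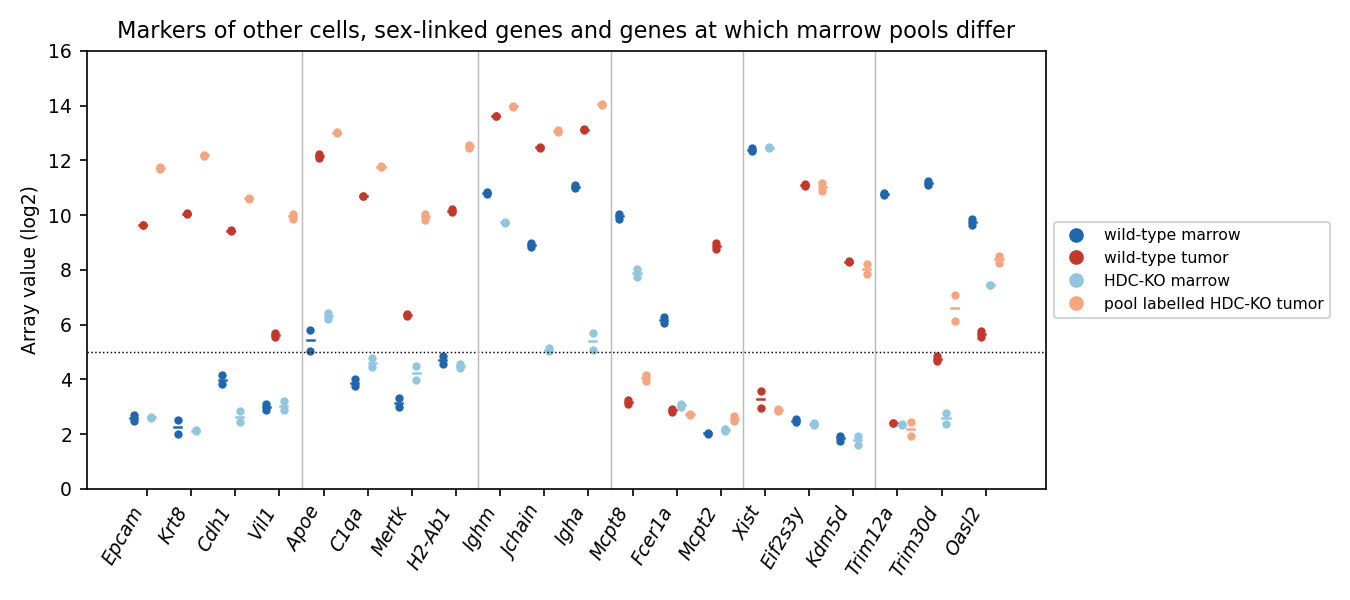
Log2 value of every array (y axis) for markers of epithelium, macrophages, B and plasma cells and mast cells, sex-linked genes and genes at which the marrow pools differ (x axis), coloured by pool with a bar at each mean and background at log2 5 dotted. Epithelial and macrophage markers are higher in both tumor pools, Mcpt2 is high in wild-type tumor alone, and Trim12a and Trim30d stand out in wild-type marrow.

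The tumor difference was then set against that of the HDC-KO pools, which use 4 other arrays. Hdc was 9.79 and 9.87 in HDC-KO marrow and 13.02 and 13.03 in the pool labelled HDC-KO tumor, close to the wild-type pools, so the level of Hdc went against that label and the comparison rests on the label alone. In those pools 1187 genes were called higher in tumor (15.8%) and 1240 lower (16.5%), and 840 genes were called the same way in both genotypes, which is 76.2% of the wild-type calls and 34.6% of the HDC-KO calls. The shared genes were 626 of the 716 wild-type rises and 214 of the 387 falls, and 18 higher and 19 lower genes were called in opposite directions. The difference of the tumor effects, HDC-KO minus wild-type, passed the same rule at 1821 genes (24.3%), of which 884 were higher (11.8%) and 937 lower (12.5%).

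Division genes and primary granule genes differed between the genotypes. Of the 26 cell cycle genes 25 were lower in the difference of effects and none higher, and of 25 DNA replication genes 23 were lower. The median tumor difference of the cell cycle list was -4.04 in the HDC-KO pools against -0.34 in wild-type. Mki67 had 12.61 as its HDC-KO marrow mean and 10.10 in the pool labelled HDC-KO tumor, against 12.59 and 12.43 in wild-type. The primary granule list was lower at 10 of 13 and higher at 1 in the difference of effects. Mpo differed by -4.80 ± 0.09, from 13.15 and 13.09 to 5.51 and 5.36 in the HDC-KO pools. Interferon-induced genes went the other way, with 18 of 24 higher and none lower, among them Oasl2 with 5.01 ± 0.17 and Ifit3 with 4.90 ± 0.22. These interferon differences include the wild-type marrow values given above. Epithelial markers also differed, with a median of 9.09 in wild-type tumor and 10.7 in the pool labelled HDC-KO tumor. Of 19 epithelial genes 18 were higher and 1 lower in the difference of effects. Mcpt2 rose in wild-type only, with a difference of effects of -3.87 once means under log2 5 were raised to 5, and its arrays in the pool labelled HDC-KO tumor were 2.48 and 2.65. The part of cell makeup in these differences was not tested.

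**Figure D5:**
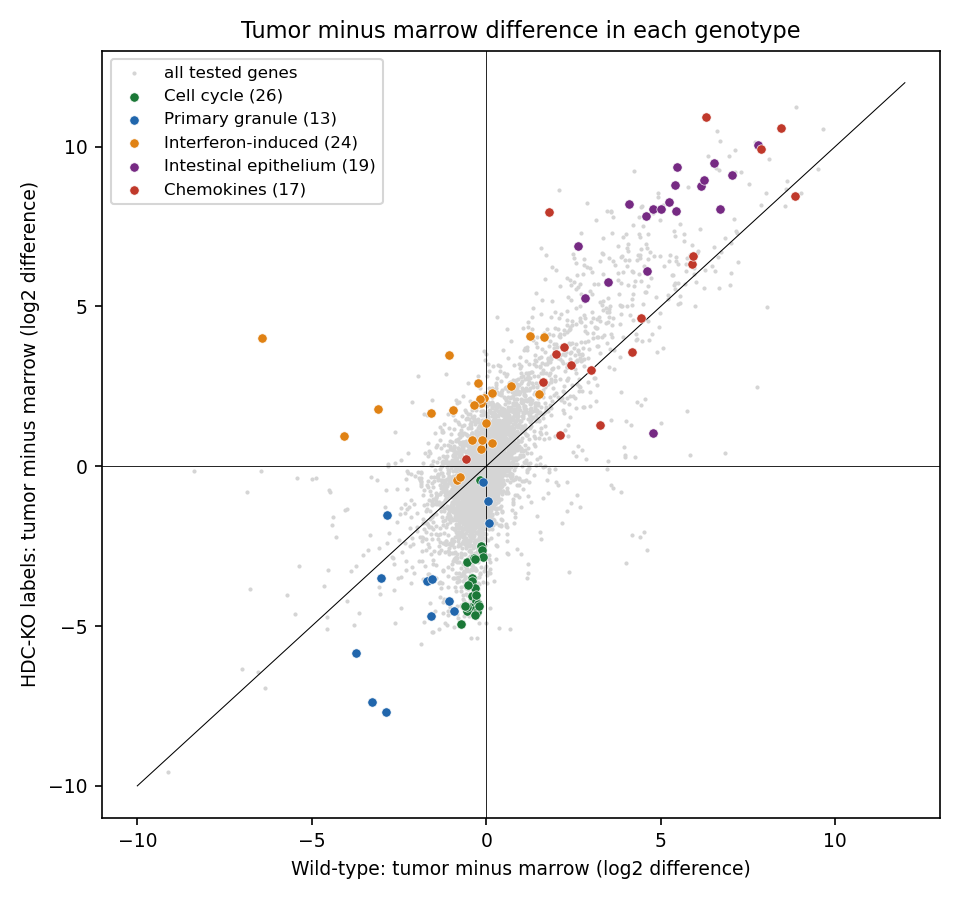
Tumor minus marrow difference on the log2 scale in the wild-type pools (x axis) and the HDC-KO pools (y axis) for the 7508 tested genes, with genes of selected lists in colour and the diagonal of equal difference. Cell cycle genes sit near 0 on the x axis and low on the y axis, and interferon-induced genes lie mostly above the diagonal.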

How the data were processed

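RNA of sorted mouse myeloid cells was hybridised to 8 Affymetrix arrays in 4 groups of 2 technical replicates, as the titles give them. The authors deposited log2 values for 45101 probe sets, computed with GCRMA per the submitters' processing notes. GCRMA corrects background and normalizes between arrays. That the scale is log2 was inferred from the range of the values, and no software version was found in the labels. Arrays have no read depth, so their number limits precision.

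Gene names came from the platform's annotation of the probe sets: 34958 had 1 gene, 932 several and 9211 none. Of the 18194 genes, 7508 at or above log2 5 on at least 2 of the 4 wild-type arrays were tested. The model was fitted to all 8 arrays by lmFit and eBayes of limma 3.58.1 (R 4.3.3), with 4 residual and 2.23 prior degrees of freedom. P-values were adjusted by Benjamini-Hochberg over all tested genes, and a call needed an adjusted p under 0.05 and 2-fold. Errors of differences are limma's standard errors. A pool mean under log2 5 was taken as background, and its fold is a bound with the mean raised to 5. The fit was tested on simulated data.

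The named genes were Hdc, Itgam and Ptprc, the 10 largest and 10 smallest differences with both pools at or above log2 5, the 6 largest and 6 smallest bounds, up to 4 called genes in each direction from each of 31 lists, the cell type markers, and the 6 largest and 6 smallest differences of effects. Genes given as not called, and Il1b, Fos, Mki67, Top2a, Ltf, Csf1r, Ccr2 and Gfi1, were chosen after their values were seen. Members and lists were chosen with earlier results of these data known. Ly6g, Ly6c2 and some list genes were not analysed here. Promoters came from RefSeq on GRCm38.p6, and the array values carry no coordinates. Same-numbered arrays did not deviate together, with correlations of -0.034 to 0.081 between pools. The alternatives were other filters, scalings, probe set rules, variance models, the replicate block, the 4-fold threshold, the HDC-KO marrow pool as reference, each array left out and, added after seeing the data, no probe sets ending in _x_at or _s_at.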

Additional observations from a re-analysis of the deposited data

Results flagged for a closer look

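At 1821 genes the tumor minus marrow difference itself differed between the genotypes by limma's test of the difference. The values below are the HDC-KO tumor effect minus the wild-type one on the log2 scale with its SE, and the pool labelled HDC-KO tumor did not show the lower Hdc of its label. Interferon-induced genes were higher in this difference, with Oasl2 at 5.01 ± 0.17, Ifit3 at 4.90 ± 0.22, Ifit1 at 4.54 ± 0.09, Nlrc5, a regulator of MHC class I genes, at 4.04 ± 0.15, and Usp18 at 3.26 ± 0.14. Trim30d was at 10.44 and Trim12a at 8.22, but 2 and 3 of their 4 pools lay under log2 5, and with means raised to 5 the differences were 7.77 and 5.78. The Trim12a pool means were 10.78 in wild-type marrow and at most 2.41 in the other 3 pools. For Ifit1 the pool means were 8.31 and 7.25 in wild-type marrow and tumor and 5.83 and 9.32 in the HDC-KO pools.

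The antibody genes Igha and Jchain were at 6.58 ± 0.25 and 4.41 ± 0.11. Igha had the lowest pool mean, 5.38, in HDC-KO marrow, against 11.04 in wild-type marrow. The T cell receptor gene Cd3d was at -6.60 ± 0.20, and its lowest pool mean, 7.63, was that of wild-type marrow. Ugt8a, which makes galactosylceramide, was at -7.04 ± 0.22, with 7.41 in wild-type marrow, 11.42 in wild-type tumor, 11.62 in HDC-KO marrow and 8.58 in the pool labelled HDC-KO tumor.

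Lower in the difference were Mpo at -4.80 ± 0.09 and the mucosal mast cell proteases Mcpt2 at -6.43 and Mcpt1 at -5.49. For both proteases 3 of 4 pools lay under log2 5, and with means raised to 5 the differences were -3.87 and -3.35. Olfml2b, an extracellular matrix protein, was at -5.40 ± 0.19, Depdc1b at -4.56 ± 0.24 and Tex15 at -4.54 ± 0.07. For Depdc1b, a gene of dividing cells, the pool mean was 5.60 in the pool labelled HDC-KO tumor and at least 9.82 in the other 3.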

How the results depend on the processing

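The 716 higher and 387 lower genes became 450 and 245 with a filter at log2 7 and 426 and 94 at 4-fold. The 884 genes higher and 937 lower in the difference of effects became 283 and 338 at 4-fold. The 884 became 1745 with no filter, 499 with the filter at log2 7 and 577 with the mean of all probe sets. These settings change which genes are tested or called. The other settings kept these 4 counts within 1.5 times, including 584 and 334 with values raised to log2 5, 726 and 369 with quantile normalization, and 676 and 382 without probe sets ending in _x_at or _s_at. Leaving out 1 wild-type array gave 710 to 723 genes higher, 391 to 402 lower, and 879 to 895 and 925 to 937 for the difference of effects. The replicate block gave 717 and 387, and 882 and 936, and changed no call of a named gene. The Hdc difference was 0.03 to 0.10 without an array and 3.41, called, against the HDC-KO marrow pool. Against that pool Lpl changed sign to -1.07, Cd3d to -0.44, Ifit1 to 1.41, Nlrc5 to 0.59 and Ugt8a to -0.20. Trim30d read 2.17 and Trim12a 0.067 there, with both pools under log2 5, so neither gives a direction. The cause was not tested. Another 10 named genes lost their call there, and 26 did at 4-fold. Each tissue is 1 pool, so no setting speaks to differences between mice, and signals under log2 5 give bounds only.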

Other observations

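Lipid handling genes were mixed, with 4 of 13 tested higher in wild-type tumor and 1 lower, beside 9.54% and 5.15% of all tested genes. None was called among the 8 measured in both pools. Abca1, which exports cholesterol, was 3.84 and 3.70 on the marrow arrays and 10.92 and 10.98 on the tumor arrays, at least 61.8-fold higher. Hilpda, a lipid droplet protein, was 2.97 and 2.52 on the marrow arrays and 8.77 and 8.80 on the tumor arrays, at least 13.8-fold higher, and Cd36, a scavenger receptor for fatty acids, rose at least 4.45-fold. Srebf2, which drives cholesterol synthesis, fell at least 2.78-fold. Of 22 genes of glycolysis and hypoxia 2 (9.09%) were higher and 1 (4.55%) lower, near the 9.54% and 5.15% of all tested genes. Their median difference was 0.04. P4ha1, a collagen prolyl hydroxylase, was 5.24 and 4.88 on the marrow arrays and 7.26 and 7.27 on the tumor arrays, the glucose transporter Slc2a1 rose 3.60-fold and Pdk1 fell at least 2.27-fold. Ldha, which makes lactate, was not called at 12.37 and 12.31 and 12.30 and 12.31.

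Cell survival and death genes gave 4 of 17 higher and none lower, beside 9.54% and 5.15% of all tested genes. Cdkn1a, the cell cycle inhibitor p21, was 5.05 and 4.35 on the marrow arrays and 9.87 and 9.95 on the tumor arrays, at least 30.1-fold higher, and the death genes Pmaip1 and Bcl2l11 rose 4.39-fold and 4.03-fold, while Bcl2 and Mcl1 were not called. Innate sensing genes gave 7 of 17 higher, beside the same 9.54%, and none lower. Of the 16 measured in both pools 6 were higher, beside 4.74% of all genes so measured. Tlr1, a receptor for bacterial lipopeptides, was 4.35 and 5.03 on the marrow arrays and 10.45 and 10.44 on the tumor arrays, at least 43.5-fold higher, Clec4n, the fungal receptor dectin-2, rose 12.4-fold (at least 41.1-fold against HDC-KO marrow) and the inflammasome sensor Nlrp3 rose 3.22-fold. Tlr2 and Myd88 were not called.

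Of the histamine genes Hnmt, which inactivates histamine, and the receptor gene Hrh2 were tested beside Hdc. Limma called none of the 3, and 1 had an unadjusted p under 0.05, beside 3544 of all 6405 genes not called. Hnmt was 10.43 and 10.35 on the marrow arrays and 10.03 and 9.75 on the tumor arrays. The erythroid and platelet list gave 5 of 5 tested higher, beside 9.54% of all tested genes, with 2 of them measured in both pools. Its Car1, an anhydrase also of colon epithelium, was 4.60 and 4.50 on the marrow arrays and 11.03 and 11.13 on the tumor arrays, Car2 rose 3.69-fold (at least 7.84-fold against HDC-KO marrow), the red cell anion exchanger Slc4a1 rose 3.25-fold and the platelet chemokine Pf4 rose at least 3.99-fold. Kdm5d, on the Y chromosome, was 1.76 and 1.93 on the marrow arrays and 8.30 and 8.31 on the tumor arrays. Acta2 was the 1 stromal gene tested and was not called.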
